A study of Mus musculus with 8 samples.

Results

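Expression of 10 receptor genes of tissue-resident macrophages was followed in tumors of the mouse mammary carcinoma line 4T1: Timd4, Stab1, Cd163, Mgl2, Clec10a, Mrc1, Siglec1, Lyve1, Folr2 and Vsig4. These 10 genes were picked by name, with earlier results of the same tumors known, from 19937 genes that had a probe set listing a single gene symbol. Where a gene has several such probe sets the one with the highest mean over all tumors stands for it, but each of the 10 had 1 probe set, so no measured value entered that choice. The data are 8 Affymetrix Mouse Gene 1.0 ST arrays, 1 for each tumor. In 4 BALB/c mammary tumors, called nonirradiated, 4T1 cells had been injected into an untreated gland. In the other 4, called preirradiated, a single local X-ray dose of 20 Gy had been given to the fourth mammary gland before the same cells were placed there. All tumors had grown for 18 days. The sources used here state neither the interval between irradiation and injection nor that each tumor came from a separate mouse, so the p-values measure the spread between these tumors only. The host animals were not engineered, the cells are 1 transplanted line, and RNA came from whole tumor tissue. In such samples fewer macrophages and less receptor RNA per macrophage cannot be told apart.

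Resident macrophages clear dying cells, worn proteins, free hemoglobin and glycan-bearing debris, and they carry a set of surface receptors for this work that recently recruited monocytes lack or carry at a low level. Timd4 binds phosphatidylserine on apoptotic cells. Mgl2 and Clec10a are paired C-type lectins that recognise galactose and N-acetylgalactosamine, and Mrc1, the mannose receptor CD206, takes up mannose-rich glycoproteins and collagen fragments. Stab1 and Cd163 are scavenger receptors, Siglec1 is a lectin for sialic acid, Lyve1 binds hyaluronan, Folr2 is folate receptor beta and Vsig4 captures complement C3 fragments. In the normal mammary gland, macrophages with Lyve1, Mrc1 and Folr2 lie in the stroma around ducts and vessels. Several of these genes are shared with other cells: Lyve1 and Stab1 with lymphatic and sinusoidal endothelium, and Mgl2 and Clec10a with some dendritic cells.

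Values are log2 signals after robust multi-array averaging (RMA), and a difference is preirradiated minus nonirradiated with its standard error (SE) from limma. Of the 10 receptors, Mgl2, Timd4 and Folr2 were lower in preirradiated tumors by 0.57, 0.55 and 0.52 on the log2 scale in size, Clec10a was lower by a smaller amount, and the other 6 had differences within the spread of the tumors. The limits of the study's own filter are an unadjusted p of at most 0.05, a change of at least 0.4 and a mean of at least 4.0. It was passed by 3 of 10 receptors, all lower, and by 0.153% of all probe sets in that direction. An unadjusted limma p of at most 0.05 with a lower value was met by 4 of 10, against 2.97% of all probe sets. A difference below 0 was found in 9 of 10, against 50.5% of all probe sets, with a median of -0.18 for the receptors and -0.001 over all 34738 probe sets tested. That count rested on preirradiated tumor 2. Without this tumor 5 of 10 were below 0, with a median of -0.06 against -0.001 over all probe sets. Relative to the mean of general macrophage genes 5 of 10 were below 0. Their median was then -0.03, against 0.149 over all probe sets. After Benjamini-Hochberg adjustment over the 34738 probe sets, with no tumor left out, 0 receptors and 0% of all probe sets passed 0.05 in limma. In that fit 2015 probe sets had an unadjusted p of at most 0.05. Since the receptors were proposed with these results known, the counts describe them and support nothing further.

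**Figure D1:**
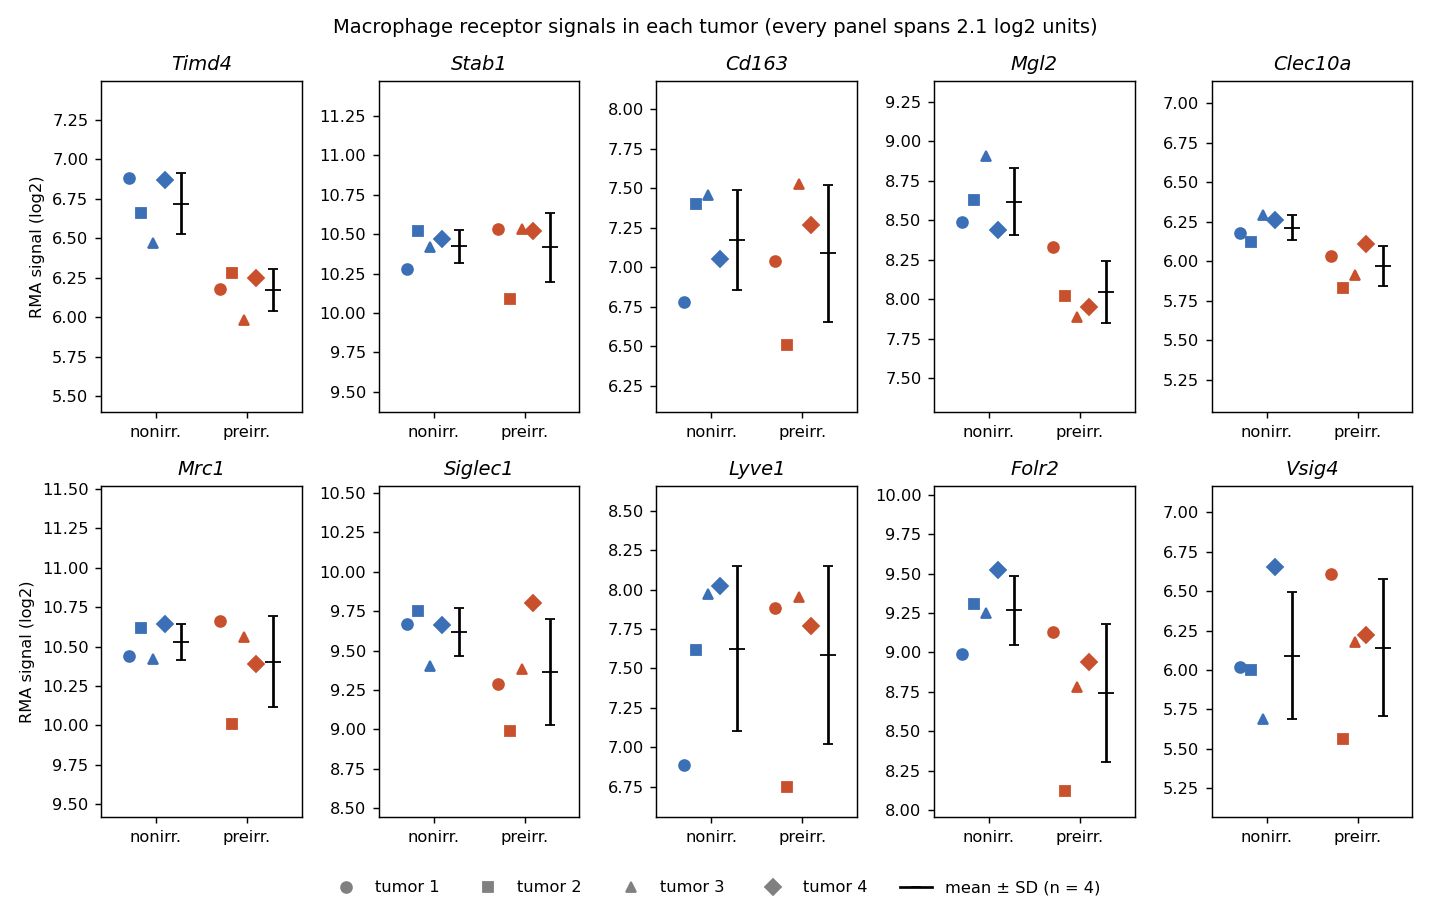
Each panel plots the log2 RMA signal of 1 receptor gene (vertical axis) in the nonirradiated (blue) and preirradiated (orange) tumors, with marker shape for the tumor number and a black bar for mean and SD of the group. The groups do not overlap for Timd4, Mgl2 and Clec10a, and the orange square, preirradiated tumor 2, is the lowest point in 8 of 10 panels.

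The 250 bases before an annotated start are printed for Timd4, Mgl2, Folr2 and Vsig4. The first 3 had the largest decreases in preirradiated tumors, and Vsig4 was not lower. Sequences are those of RefSeq on GRCm38.p6, written 5′ to 3′ along the gene's own strand. Capitals mark GGAAGT, a core bound by ETS factors, the family of the macrophage regulator PU.1, searched on both strands.
Timd4, chr11:46810549-46810798, plus strand: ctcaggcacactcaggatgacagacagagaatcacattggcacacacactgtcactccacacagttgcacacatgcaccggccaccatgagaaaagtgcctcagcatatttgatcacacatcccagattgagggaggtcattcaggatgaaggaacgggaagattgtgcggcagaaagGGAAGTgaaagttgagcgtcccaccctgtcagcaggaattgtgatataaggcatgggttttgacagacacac
Mgl2, chr11:70130107-70130356, plus strand: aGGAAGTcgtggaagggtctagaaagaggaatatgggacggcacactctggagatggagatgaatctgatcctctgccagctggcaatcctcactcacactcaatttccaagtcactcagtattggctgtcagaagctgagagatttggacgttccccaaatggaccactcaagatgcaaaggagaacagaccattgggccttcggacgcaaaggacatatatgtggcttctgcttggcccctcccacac
Folr2, chr7:101857191-101857440, minus strand: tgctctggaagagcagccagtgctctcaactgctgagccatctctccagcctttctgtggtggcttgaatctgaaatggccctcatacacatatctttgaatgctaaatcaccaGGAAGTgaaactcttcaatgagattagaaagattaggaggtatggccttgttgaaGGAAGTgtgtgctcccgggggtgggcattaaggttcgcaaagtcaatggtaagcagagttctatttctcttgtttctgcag
Vsig4, chrX:96293439-96293688, minus strand: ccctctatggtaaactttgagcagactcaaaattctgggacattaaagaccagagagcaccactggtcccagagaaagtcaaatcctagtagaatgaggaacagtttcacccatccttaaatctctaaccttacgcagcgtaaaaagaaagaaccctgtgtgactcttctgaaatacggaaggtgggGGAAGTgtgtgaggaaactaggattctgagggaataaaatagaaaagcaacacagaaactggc
Windows were found for 7 of the 10 receptors (Timd4, Mgl2, Folr2, Vsig4, Mrc1, Cd163 and Stab1), and for Folr2 there is also a window at a start nearer the gene's end, which holds no GGAAGT. This motif was present in 5 of these 8 windows, 1 each for Timd4, Mgl2, Mrc1, Vsig4 and Folr2, where it occurs 2 times, and in 19.7% of all 32851 windows of this length. The motif TGCTGA, which forms either arm of the palindromic element bound by Maf factors, was present in 4 of the 8 windows, those of Timd4, Stab1 and both of Folr2, and in 16.1% of all windows. TATAAA, the TATA box, was found for none of the 7, while 12.4% of all windows hold it. A match of letters is a description of the window and not a binding site. GGAAGT stands in the windows of Mrc1 and Vsig4 as well as in those of Timd4 and Mgl2 and in 1 of the 2 Folr2 windows.

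Timd4, whose protein TIM-4 tethers apoptotic cells to macrophages, stood at 6.88, 6.66, 6.47 and 6.87 in nonirradiated tumors 1 to 4. In preirradiated tumors 1 to 4 it stood at 6.18, 6.28, 5.98 and 6.25. Every preirradiated tumor lay below every nonirradiated one, with a gap of 0.19 between the groups. Group values were 6.17 ± 0.13 against 6.72 ± 0.19 (mean ± SD, n = 4 each), a difference of -0.55 (SE 0.10, limma 95% interval -0.78 to -0.31), or 1.46-fold lower. The unadjusted limma p was 6.9e-04 and the adjusted p 0.620. Without any 1 of the 8 tumors the difference ran from -0.63 to -0.48 and passed the study's filter each time. Its signal is not far above the median of all probe sets on an array, which was 5.94 to 6.0, and RMA tends to compress differences at such levels.

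Among the C-type lectins, Mgl2 differed most. It was 8.49, 8.63, 8.91 and 8.44 in nonirradiated tumors 1 to 4, and 8.33, 8.02, 7.89 and 7.95 in preirradiated tumors 1 to 4. The groups were again separate, by 0.11, with preirradiated tumor 1 the closest to the nonirradiated range. The difference of 8.05 ± 0.20 against 8.62 ± 0.21 (n = 4 each) was -0.57 (SE 0.13, interval -0.86 to -0.28), or 1.49-fold lower, with an unadjusted limma p of 0.00180 and an adjusted p of 0.620. It ran from -0.67 without preirradiated tumor 1 to -0.48 without nonirradiated tumor 3 and passed the study's filter without any 1 tumor.

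Clec10a, the neighbour and close relative of Mgl2 on mouse chromosome 11 in GRCm38.p6, had a smaller difference in the same direction. Its signal was 6.18, 6.12, 6.29 and 6.26 in nonirradiated tumors 1 to 4, and 6.03, 5.83, 5.91 and 6.11 in preirradiated tumors 1 to 4. The groups were separate by no more than 0.01, between preirradiated tumor 4 and nonirradiated tumor 2. The means were 5.97 ± 0.12 and 6.21 ± 0.08 (n = 4 each), and the difference was -0.24 (SE 0.070), with an unadjusted limma p of 0.00778 and an adjusted p of 0.759, below the size the study's filter asks for. Non-overlap with lower preirradiated values was thus seen in 3 of 10 receptors, Timd4, Mgl2 and Clec10a, against 1.68% of all probe sets. Transcripts of Mgl2 and Clec10a are alike, so signals of the pair may not be fully separate, and this was not tested.

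Mrc1, the third lectin, did not follow them. It was 10.44, 10.62, 10.42 and 10.64 in nonirradiated tumors 1 to 4, and 10.66, 10.01, 10.56 and 10.39 in preirradiated tumors 1 to 4. Preirradiated tumor 1 was the highest of all 8 and preirradiated tumor 2 the lowest, so the groups overlapped. The difference was -0.13 (SE 0.14, interval -0.44 to 0.18), and without preirradiated tumor 2 it was 0.0049. Without preirradiated tumors 1 and 3, which leaves tumors 2 and 4 in that group, it was -0.33, with an unadjusted limma p of 0.0333.

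Folr2, which binds folate and marks perivascular macrophages in many tissues, was 8.99, 9.31, 9.25 and 9.52 in nonirradiated tumors 1 to 4. It was 9.13, 8.12, 8.78 and 8.94 in preirradiated tumors 1 to 4. Of these, 3 lay below all nonirradiated tumors, and preirradiated tumor 1 lay above nonirradiated tumor 1. The difference of 8.74 ± 0.44 against 9.27 ± 0.22 (n = 4 each) was -0.52 (SE 0.21, interval -1.01 to -0.04), or 1.44-fold lower, with an unadjusted limma p of 0.0382 and an adjusted p of 0.840. It rested in part on preirradiated tumor 2, without which it was -0.31. Folr2 also missed the study's filter, through its p, without nonirradiated tumor 2 (-0.51), nonirradiated tumor 3 (-0.53), nonirradiated tumor 4 (-0.44) or preirradiated tumor 3 (-0.54), and after further quantile normalization (-0.50). In all it missed the filter in 9 of 19 alternative settings. Its neighbour Folr1, the folate receptor of epithelia, was 5.63 ± 0.09 against 5.63 ± 0.12 (n = 4 each).

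The scavenger receptors differed little between the groups. Stab1, which takes up SPARC and modified lipoproteins, was 10.28, 10.52, 10.42 and 10.47 in nonirradiated tumors 1 to 4, and 10.53, 10.09, 10.53 and 10.52 in preirradiated tumors 1 to 4. In preirradiated tumors 1, 3 and 4 it hardly varied, and tumor 2 stood apart on the low side. The difference was -0.01 (SE 0.11, interval -0.25 to 0.24), and 0.10 without preirradiated tumor 2. Cd163, which removes hemoglobin bound to haptoglobin, was 6.78, 7.40, 7.46 and 7.05 in nonirradiated tumors 1 to 4, and 7.04, 6.51, 7.53 and 7.27 in preirradiated tumors 1 to 4. Its highest and its lowest tumor were both preirradiated, numbers 3 and 2. The difference was -0.08 (SE 0.23, interval -0.62 to 0.45), and 0.11 without preirradiated tumor 2.

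Siglec1, also called sialoadhesin or CD169, was 9.67, 9.75, 9.40 and 9.66 in nonirradiated tumors 1 to 4, and 9.29, 8.99, 9.38 and 9.80 in preirradiated tumors 1 to 4. In the preirradiated group 3 tumors lay below all nonirradiated tumors, and tumor 4 lay above them all. The difference was -0.26 (SE 0.16, interval -0.62 to 0.11), with an unadjusted limma p of 0.146 and an adjusted p of 0.903. It was -0.40 and passed the study's filter without preirradiated tumor 4, and it was -0.13 without preirradiated tumor 2.

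Lyve1 had the widest interval of the 10. The receptor was 6.89, 7.62, 7.97 and 8.02 in nonirradiated tumors 1 to 4, and 7.88, 6.75, 7.95 and 7.77 in preirradiated tumors 1 to 4. One tumor of each group was low, nonirradiated tumor 1 and preirradiated tumor 2, while the rest lay close together. The difference was -0.04 (SE 0.33, interval -0.79 to 0.72), 0.24 without preirradiated tumor 2 and -0.28 without nonirradiated tumor 1. Lyve1 also marks lymphatic vessels, whose other markers were read beside it. Prox1, the transcription factor that specifies lymphatic endothelium, was 5.15 to 5.23 in preirradiated and 5.11 to 5.19 in nonirradiated tumors. These signals lie below the array medians of 5.94 to 6.0, where the lowest signal of all was 3.75. The mean of the 5 measured lymphatic genes was 6.10 to 6.29 in preirradiated and 5.99 to 6.09 in nonirradiated tumors. Of these only podoplanin, Pdpn, passed the filter of the study, higher by 0.61 (SE 0.25). Prox1, Flt4, Mmrn1 and Reln differed by 0.02 to 0.04, so the higher mean came largely from Pdpn. The tumors low in Lyve1 had lymphatic means of 5.99 (nonirradiated 1) and 6.11 (preirradiated 2).

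Vsig4, the complement receptor CRIg, was 6.02, 6.0, 5.69 and 6.65 in nonirradiated tumors 1 to 4, and 6.61, 5.56, 6.18 and 6.22 in preirradiated tumors 1 to 4. It was the 1 receptor of the 10 with a difference above 0, at 0.05 (SE 0.26, interval -0.53 to 0.64). That sign depended on single tumors, with 0.25 without preirradiated tumor 2, -0.10 without preirradiated tumor 1 and -0.08 without nonirradiated tumor 3.

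Read by tumor instead of by gene, 1 preirradiated tumor stood apart. Preirradiated tumor 2 was the lowest of all 8 tumors for 8 receptors and below the gene mean for all 10, by an average of 0.50 in size. Its deviations ran from -0.89 for Folr2 and -0.86 for Lyve1 to -0.16 for Timd4. The 2 receptors for which it was not the lowest were Timd4 and Mgl2, and for these preirradiated tumor 3 was lowest, at -0.46 and -0.44 from the gene mean. The average deviation of the other tumors lay between -0.05 in nonirradiated tumor 1 and 0.25 in nonirradiated tumor 4, the tumor highest in Lyve1, Folr2 and Vsig4. Without preirradiated tumor 2, the 2 receptors past the study's filter were Timd4, at -0.58, and Mgl2, at -0.56.

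**Figure D2:**
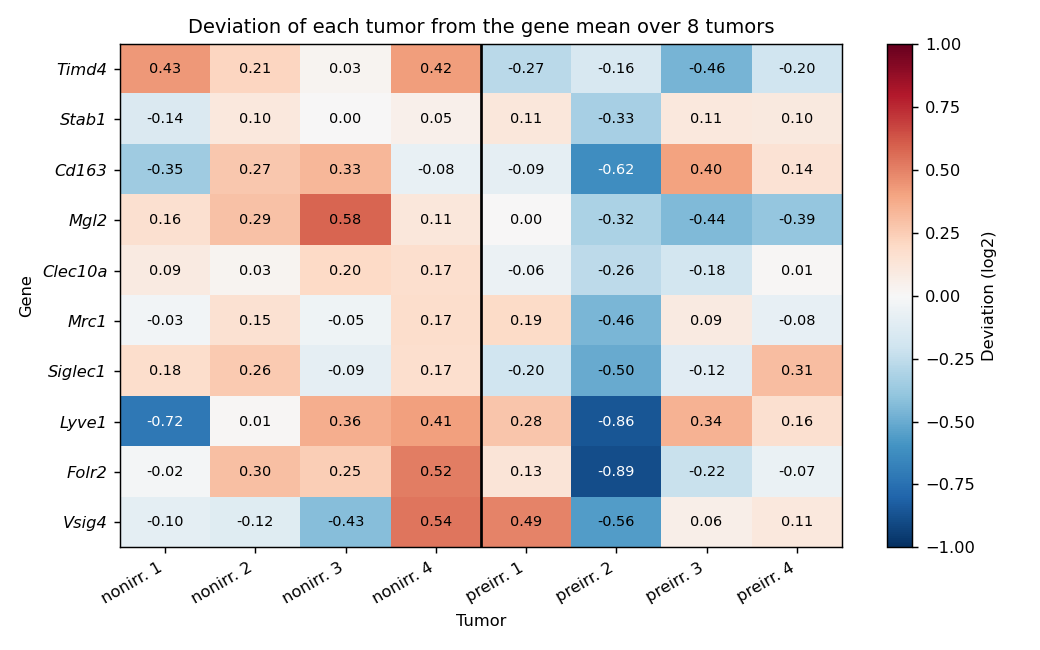
The colour map shows, for each receptor (rows) and tumor (columns, nonirradiated left of the line), the log2 signal minus the gene's mean over the 8 tumors, with red above and blue below it. The preirradiated tumor 2 column is below the mean for all 10 receptors, while the Timd4 and Mgl2 rows separate left from right, with Mgl2 in preirradiated tumor 1 at the mean.

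**Figure D3:**
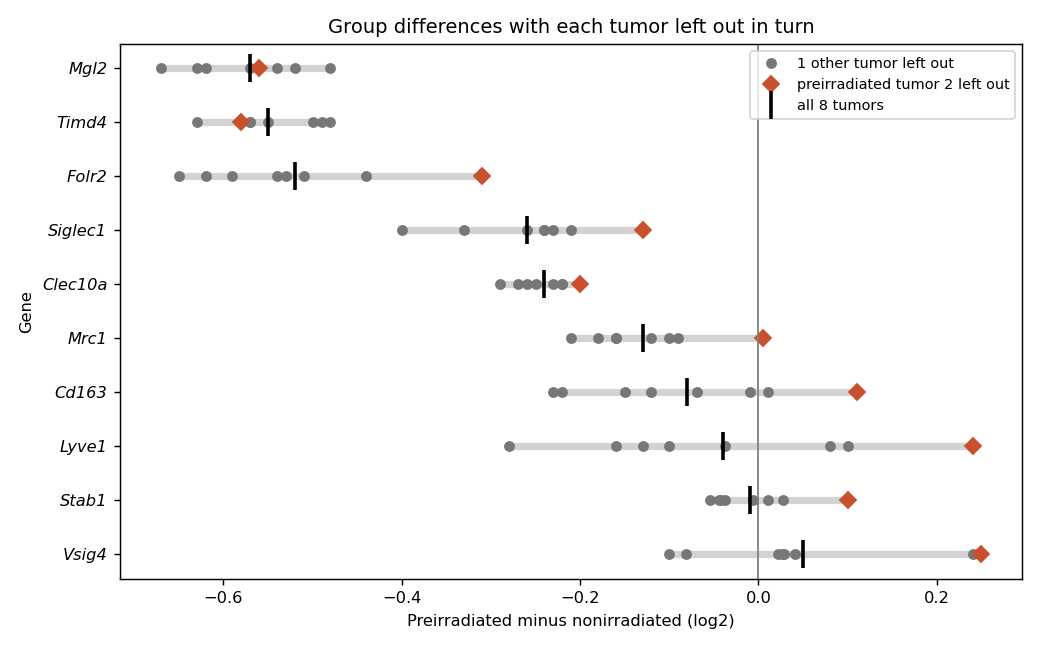
For each receptor the horizontal axis gives the log2 difference, preirradiated minus nonirradiated, with all 8 tumors (black tick), with preirradiated tumor 2 left out (orange diamond) and with each other tumor left out (grey). Leaving out preirradiated tumor 2 takes Folr2 from -0.52 to -0.31 and brings Cd163, Lyve1, Stab1 and, at 0.0049, Mrc1 above 0, while Timd4 and Mgl2 keep values of -0.48 or lower throughout.

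General macrophage genes were not low in preirradiated tumor 2. The mean of 22 such genes, among them Cd68, Csf1r, Adgre1 and the C1q chains, was 10.59, 10.71, 10.70 and 10.64 in preirradiated tumors 1 to 4, so tumor 2 was the highest of its group. In nonirradiated tumors 1 to 4 this mean was 10.89, 10.84, 10.70 and 10.81. The low point was, however, shared by the mean of other genes of resident-type macrophages, though not by each of them. The mean of 28 such genes was lowest of all 8 tumors in preirradiated tumor 2, at 7.36 against 7.51 to 7.71. Among them Fcna was 6.98 there, against 8.08 to 8.63 in the other tumors. Maf, Mertk and Axl were not lowest in that tumor, and Wwp1 was highest in it. The mean of 11 neutrophil genes was also lowest there, at 6.95 against 6.96 to 7.87 elsewhere. The mean of 9 carcinoma epithelium genes, such as the keratins Krt8 and Krt18 and the adhesion molecule Epcam, was highest in the same tumor, at 9.62, against 9.01 to 9.27 in the other 7, and its part in the result was not tested.

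Across the groups all 22 general macrophage genes were lower in preirradiated tumors, within a narrow band from -0.24 to -0.05 and with a median of -0.16. In this list 7 of 22 had an unadjusted limma p of at most 0.05, 0 passed the study's filter and 0 the adjusted threshold. Itgam, the integrin chain CD11b, had the smallest p, at 10.07 ± 0.05 against 10.27 ± 0.05 (n = 4 each). C1qc and Tyrobp, a complement C1q chain and a signalling adaptor of myeloid receptors, differed by -0.18 and -0.16. Cd68 was 10.82 ± 0.14 against 10.99 ± 0.05 (n = 4 each).

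The receptors were therefore also read relative to this macrophage mean, by subtracting it from each tumor's values. Timd4 then stood at -4.02, -4.18, -4.22 and -3.95 in nonirradiated tumors 1 to 4, and at -4.41, -4.43, -4.72 and -4.40 in preirradiated tumors 1 to 4, where the probe sets' own strengths set the level and only the comparison between tumors can be read. The groups stayed separate, and the difference was -0.40 (SE 0.10, interval -0.61 to -0.19). For Mgl2 it was -0.42 (SE 0.15, interval -0.75 to -0.09), and preirradiated tumor 1 now lay within the nonirradiated range. Folr2 stood at -0.37 (interval -0.84 to 0.09) and Clec10a at -0.09 (interval -0.32 to 0.13). The remaining 6 receptors lay between -0.11 for Siglec1 and 0.20 for Vsig4, with intervals that span 0. Subtraction of a mean that was itself lower in preirradiated tumors moved the median of all probe sets from -0.001 to 0.149, and 9537 of them then had an unadjusted p of at most 0.05. These values therefore compare the receptors with macrophage genes only.

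**Figure D4:**
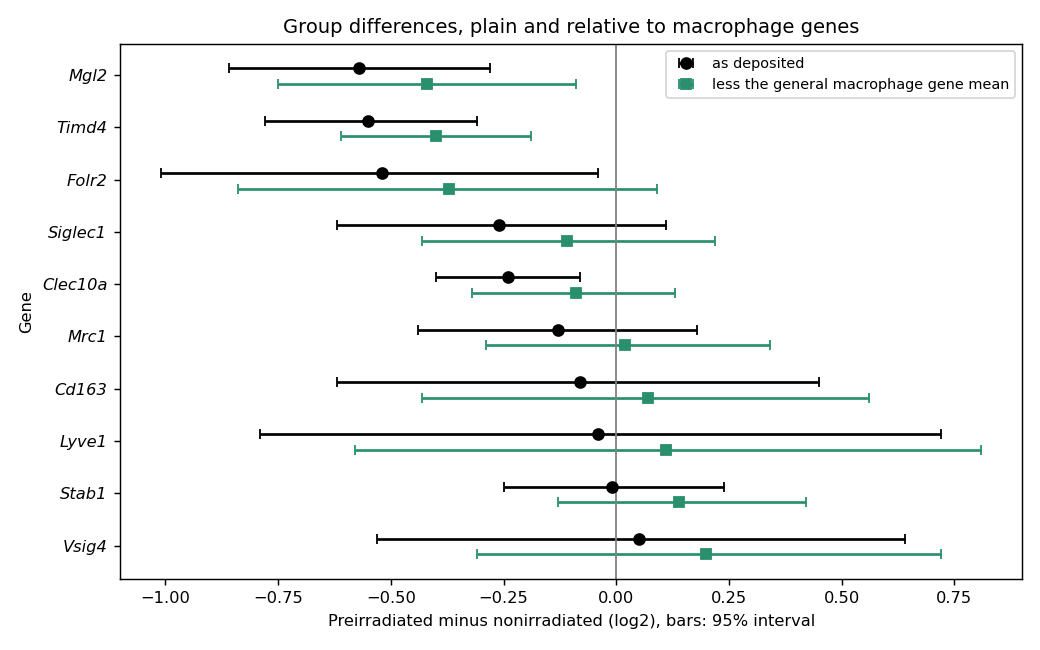
The log2 difference, preirradiated minus nonirradiated, is drawn for each receptor with its 95% limma interval, from the deposited values (black circles) and after subtraction of the general macrophage gene mean of each tumor (green squares). Mgl2 and Timd4 keep intervals below 0 on both scales, at -0.42 and -0.40 after subtraction, while the Folr2 and Clec10a intervals reach across 0 after it.

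Other genes of resident-type macrophages behaved unevenly. Of 28 measured, 22 were lower and 6 higher, against 50.5% lower over all probe sets. Their median was -0.11, against -0.004 over all 19937 named genes. An unadjusted limma p of at most 0.05 was met by 6, all lower, against 2.97% of all probe sets in that direction. The study's filter was passed by 1 and the adjusted threshold by 0. The 1 past the filter was the eosinophil chemokine Ccl24, at 7.48, 7.44, 8.03 and 8.10 in nonirradiated and 7.44, 7.09, 6.99 and 7.10 in preirradiated tumors 1 to 4. Its group difference was -0.60 (SE 0.17), with preirradiated tumor 1 level with nonirradiated tumor 2. Itga9, an integrin chain, differed by -0.19 (SE 0.061), and the lectin Cd209b by -0.13 (SE 0.039) near the low end of the signal range, at 5.02 ± 0.04 against 5.14 ± 0.05 (n = 4 each).

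Scavenger receptors and lectins outside the 10 were mixed in direction. Of 38 measured, 25 were lower and 13 higher, with a median of -0.03, and 0 passed the study's filter. Mrc2, the collagen uptake receptor Endo180 and a relative of Mrc1 found mainly on fibroblasts, was 7.26, 7.21, 7.28 and 7.31 in nonirradiated and 7.80, 7.55, 7.88 and 7.36 in preirradiated tumors 1 to 4. All preirradiated tumors were above all nonirradiated ones, with a difference of 0.38 (SE 0.11), the opposite sign to Mrc1. The mean of 11 fibroblast and matrix genes was also higher, at 9.38 to 9.72 in preirradiated and 9.07 to 9.25 in nonirradiated tumors, and its part in the Mrc2 difference was not tested. Clec4n and Clec7a, the Dectin-2 and Dectin-1 receptors for fungal glycans, differed by -0.23 (SE 0.078) and -0.39 (SE 0.15). In both, 3 of 4 preirradiated tumors were below all nonirradiated tumors.

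Genes of alternative macrophage activation, the programme of interleukin 4 and STAT6 that raises Mgl2 and Mrc1 in cultured macrophages, were mixed in direction. Of 19 measured, 13 were lower and 6 higher, with a median of -0.01, and 0 passed the study's filter. The growth factor Csf1, placed in this list because macrophages depend on it, was 10.28 ± 0.08 against 10.41 ± 0.07 (n = 4 each). Il4 itself was near the low end of the signal range, at 5.49 ± 0.03 against 5.40 ± 0.04 (n = 4 each), and Retnla, a target of interleukin 4 in macrophages, was 5.15 ± 0.16 against 4.95 ± 0.12 (n = 4 each).

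Genes for ligands of the receptors and related bridging proteins were measured for 11 of 12 names, and 8 were higher and 3 lower, with a median of 0.05 and 0 past the study's filter. Pros1, protein S, which bridges phosphatidylserine to the Mer and Axl receptors, was 7.96, 7.85, 7.81 and 7.93 in nonirradiated and 8.35, 8.05, 8.23 and 8.20 in preirradiated tumors 1 to 4. The groups did not overlap, with a difference of 0.32 (SE 0.067) and an unadjusted limma p of 0.00137, opposite in sign to Timd4. Spn, the sialylated leukocyte protein CD43 and a ligand of Siglec1, was 7.20 ± 0.13 against 7.42 ± 0.03 (n = 4 each), also without overlap. Has2, which makes the Lyve1 ligand hyaluronan, was 9.82 ± 0.30 against 9.42 ± 0.35 (n = 4 each), with overlap.

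Markers of other cells that carry some of these receptors, or that a mammary tumor sample can hold, gave the following. Of 14 dendritic cell genes 12 were lower, with a median of -0.03 and list means of 6.07 to 6.17 in preirradiated and 6.14 to 6.26 in nonirradiated tumors, and 0 passed the study's filter. Of 7 monocyte genes 5 were lower (median -0.09), but the 1 past the study's filter was higher: Vcan, which encodes the matrix proteoglycan versican, at 8.41 ± 0.30 against 7.73 ± 0.22 (n = 4 each). Of 11 neutrophil genes 8 were lower (median -0.07), with 1 past the filter, lower. All 11 T and NK cell genes (median -0.27) and all 7 B cell genes (median -0.08) were lower, each list with 1 gene past the filter. The B cell mean was 5.87 in nonirradiated tumor 4, against 5.41 to 5.45 in the rest of its group. In preirradiated tumors it was 5.34 to 5.43. Of 7 mast cell genes 5 were lower (median -0.01), with 0 past the filter. In the other direction, 11 of 12 blood endothelial genes (median 0.09), 10 of 11 fibroblast and matrix genes (median 0.38), 8 of 9 carcinoma epithelium genes (median 0.19) and 8 of 9 adipocyte genes (median 0.53) were higher. Past the filter, all higher, were 4 fibroblast and matrix genes, 1 adipocyte gene and 0 of the blood endothelial and carcinoma lists. The adipocyte mean was 8.07 in preirradiated tumor 1, against 6.58 to 6.78 in the other preirradiated and 6.48 to 6.86 in the nonirradiated tumors. Skin epidermis genes had 3 of 5 higher (median 0.04). All 12 skeletal muscle genes were higher (median 1.74), through preirradiated tumors 1 and 3, with list means of 9.05 and 10.28 against 6.03 to 6.33 in the other 6. Without these tumors, which leaves preirradiated tumors 2 and 4, Timd4 differed by -0.45, Mgl2 by -0.64 and Folr2 by -0.74. In this setting 3 receptors passed the study's filter, as with all tumors. All 10 were below 0, with a median of -0.31 against 0.007 over all probe sets. Preirradiated tumor 2, the lowest of all tumors for 8 receptors, carries more weight here than in the full group. Without that tumor 5 of 10 receptors were below 0. How much of the larger differences comes from this weight was not tested. Whether the lymphocyte, stromal and tumor cell markers that move with the groups take part in the receptor differences was not tested. Nor was this tested for the muscle, fat, skin and B cell signals that stood high in particular tumors.

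Among 17254 named genes, those whose values over the 8 tumors most resembled the mean of the 10 receptors were Ajm1, Slc19a2, Slc25a39, Pias4, Fcna, Alox5, Nrip2 and Cstb, with Pearson correlations from 0.98 to 0.94. These genes are the best matches of a search over 17254 genes with only 8 tumors, so high correlations follow in part from the choice. The 8 tumors also share their arrays and normalization between genes, so these values are a description. Fcna, the lectin ficolin A of macrophages, was 8.13, 8.63, 8.35 and 8.51 in nonirradiated and 8.12, 6.98, 8.08 and 8.31 in preirradiated tumors 1 to 4. It had the same low point, preirradiated tumor 2, with a correlation of 0.97 (Spearman 0.86), 0.95 after group means were removed and 0.81 without preirradiated tumor 2 and nonirradiated tumor 4. The thiamine transporter Slc19a2 and Alox5, the 5-lipoxygenase of leukotriene synthesis, had correlations of 0.82 and 0.82 without these tumors.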

How the data were processed

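Total RNA of 8 tumors was measured on 8 arrays. The deposited values are log2 signals that the authors made by RMA, per the series' design text (affy, Bioconductor 2.4) and the submitters' processing notes (affy, R 2.15.3). The chip description file and genome build are not given in the sources used here. RMA makes array distributions alike, so total RNA changes cannot be seen. Precision is limited by the number of arrays.

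Gene names came from the platform annotation, where 21640 of 34760 probe sets list 1 symbol, 1321 several and 11799 none. Entrez IDs matched to the RefSeq table of GRCm38.p6 changed 0 symbols and left 87 unlisted. The 34738 probe sets with a mean of at least 4.0 were fitted with limma 3.58.1 in R 4.3.3 (lmFit, eBayes, two-sided, 4 against 4 tumors), the test the design text names. The fit was also run on simulated arrays, with normal values drawn separately for each probe set. Such arrays hold no tumor that stands apart across many genes, so that run does not bear on the differences reported here. The members and the 18 gene lists were chosen with earlier results of these data known. The rule for names gave all 10 members, up to 3 genes per list by p, and the 8 genes most correlated with the member mean. Others are named for their role. Alternatives covered the mean limit, variance model, normalization, array weights, replicate number, thresholds, the macrophage mean and leaving tumors out.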

Additional observations from a re-analysis of the deposited data

Results flagged for a closer look

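Within a group of 4 tumors, a value was looked at again when its gap to the nearest other tumor exceeded Dixon's critical share of the group's range at the 95% level. This was so in 8 of 92 groups of values looked at, where chance gives about 5%. Among the receptors, Stab1 in preirradiated tumor 2, at 10.09, stood below the others of its group at 10.52 to 10.53, and Lyve1 in the same tumor, at 6.75, stood below 7.77 to 7.95. The mean of the other scavenger receptors and lectins was 7.28 in nonirradiated tumor 1, against 7.20 to 7.21 in the rest of its group. The adipocyte mean was 8.07 in preirradiated tumor 1 (others 6.58 to 6.78) and 6.86 in nonirradiated tumor 2 (others 6.48 to 6.54). The skin epidermis mean was 6.63 in preirradiated tumor 3 (others 5.48 to 5.60) and 6.53 in nonirradiated tumor 4 (others 5.47 to 5.64). The B cell mean was 5.87 in nonirradiated tumor 4, against 5.41 to 5.45 in the rest of its group.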

How the results depend on the processing

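Of 190 alternative values for single receptors, 161 kept their direction and their side of the study's filter, and all those of Mgl2 and Clec10a did. Part of this tally was fixed in advance. The mean limits, variance model, replicate block and thresholds leave the difference itself unchanged, and receptors with small differences had little room to cross the filter. Timd4 changed under 1 alternative, the macrophage mean, where it reached -0.40 and lay just short of the limit. The number of receptors past the filter was 1, Mgl2, after subtraction of the macrophage mean, and 2 to 4 without any 1 tumor. Signs turned where the difference was small. Stab1 was 0.019 after further quantile normalization, 0.011 with array weights and 0.14 relative to the macrophage mean, where Cd163 was 0.065, Mrc1 0.023 and Lyve1 0.11. Vsig4 was -0.20 without preirradiated tumors 1 and 3. Leaving out 1 tumor gave -0.054 to 0.10 for Stab1, -0.23 to 0.11 for Cd163, -0.21 to 0.0049 for Mrc1, -0.28 to 0.24 for Lyve1 and -0.10 to 0.25 for Vsig4. Same-numbered tumors did not deviate together (correlations -0.289 to -0.075, and 0 of 8 tumors correlated best with their own number), and a fit with the replicate number as a block left 2 receptors past the filter, with Folr2 at p = 0.0552 in limma. Folr2 was also lost after further quantile normalization (-0.50, with a limma p of 0.0530) and at a p limit of 0.01, and missed the filter in 9 of 19 settings. In every alternative run 0 of all probe sets passed the adjusted threshold in limma, with 1171 to 9537 at an unadjusted p of at most 0.05. No receptor had another probe set to try. The number of arrays limits what differences can be seen, and the signals of Clec10a, Vsig4 and Timd4 lie near the array median.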
